A study of Rattus norvegicus with 9 samples.

Results

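The genes described here present peptides to T cells. B2m, Tap1, Tap2, Psmb8, Psmb9 and Nlrc5 act in the class I pathway of the major histocompatibility complex (MHC), which is named RT1 in the rat, and Ciita, Cd74, RT1-Ba and RT1-Da act in the class II pathway. They were selected by exact match of the gene symbol, a rule that used no measured value, and all 10 were among the 35362 genes of the count table. The list of symbols itself was chosen with earlier results of these data known. RNA of adipose-derived mesenchymal stem cells (ASCs) at passage 3 was sequenced in 9 samples. The cells came from male Sprague Dawley rats aged 6 weeks, with 3 samples from the subcutaneous fat of the groin (SASCs), 3 from perirenal fat (PASCs) and 3 from epididymal fat (EASCs). No group carried a transgene or received an agent, and the cells were obtained by collagenase digestion and adherence to plastic, without sorting. The methods describe 6 rats and 6 replicate wells in each group, and the sources used here do not say which rat gave which sample, so the p-values measure the spread between these samples, which may be technical.

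MHC class I molecules are made by nearly all nucleated cells. Proteins are cut into peptides by the proteasome, whose catalytic subunits can be replaced by the immunoproteasome subunits Psmb8, Psmb9 and Psmb10 under interferon, the transporter made of Tap1 and Tap2 carries the peptides into the endoplasmic reticulum, and a heavy chain folds around the peptide together with beta-2-microglobulin, the product of B2m. Nlrc5 is the transactivator of class I genes. MHC class II molecules are made mainly by dendritic cells, macrophages and B cells, under the transactivator Ciita. Their alpha and beta chains, such as those of RT1-Ba and RT1-Da, are kept free of peptide by the invariant chain Cd74 until proteases of the endosome remove it. Cultured mesenchymal stem cells are known for class I at the surface and little class II unless interferon gamma is present.

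In the deposited table, Psmb9, Tap1, Psmb8 and Tap2 stood next to each other on chromosome 20, between positions 3973424 and 4009587, a span of 36164 bases. RT1-Ba (4066133 to 4070726) and RT1-Da (4127644 to 4132616) followed on the same chromosome. B2m, Nlrc5, Ciita and Cd74 were on chromosomes 3, 19, 10 and 18. Psmb9 on the minus strand, up to position 3978845, and Tap1 on the plus strand, from position 3979302, pointed away from each other. The methods name the genome build rn6 and the submitters' processing notes name rn5, so these positions are given as the table has them.

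RefSeq held a promoter for 8 of the 10 genes, all but Nlrc5 and Ciita, on the build GRCr8. The stretches from 250 bases before to 20 after the transcript start of B2m (chr3:129549080-129549349, plus strand), Tap1 (chr20:4668524-4668793, minus strand), Psmb9 (chr20:4668750-4669019, plus strand), Psmb8 (chr20:4657012-4657281, minus strand) and RT1-Da (chr20:4515165-4515434, plus strand) are shown because the values of these genes are compared and because interferon acts on the class I genes through short elements near the start. They read 5′ to 3′ along the gene's own strand, in lower case, with capitals at matches on either strand to GAAA followed after any 2 bases by GAAA again, an interferon response element, to TTCNNNGAA, a gamma-activated site, or to CCAAT. These matches are letters in a window and not shown to be sites.
B2m: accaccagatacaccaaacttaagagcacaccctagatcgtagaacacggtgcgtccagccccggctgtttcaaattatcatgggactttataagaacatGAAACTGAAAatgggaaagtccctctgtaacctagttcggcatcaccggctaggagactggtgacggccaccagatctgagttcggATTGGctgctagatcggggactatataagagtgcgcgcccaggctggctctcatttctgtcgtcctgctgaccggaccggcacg
Tap1: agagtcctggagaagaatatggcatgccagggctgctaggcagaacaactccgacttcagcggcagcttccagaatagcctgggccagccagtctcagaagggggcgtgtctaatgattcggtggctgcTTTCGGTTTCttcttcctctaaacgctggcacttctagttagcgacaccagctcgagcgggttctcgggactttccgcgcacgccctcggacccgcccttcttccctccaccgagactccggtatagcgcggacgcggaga
Psmb9: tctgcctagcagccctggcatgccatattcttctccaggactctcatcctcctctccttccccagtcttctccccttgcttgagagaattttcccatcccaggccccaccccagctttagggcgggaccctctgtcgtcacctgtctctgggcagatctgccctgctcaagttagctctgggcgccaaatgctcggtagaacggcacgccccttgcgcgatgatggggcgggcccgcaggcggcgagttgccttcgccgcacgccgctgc
Psmb8: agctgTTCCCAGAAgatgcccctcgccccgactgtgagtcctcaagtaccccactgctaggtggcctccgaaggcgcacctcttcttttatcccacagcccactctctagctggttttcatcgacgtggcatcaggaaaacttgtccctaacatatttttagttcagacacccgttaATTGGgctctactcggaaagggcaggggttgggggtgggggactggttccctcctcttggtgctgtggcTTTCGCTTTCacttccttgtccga
RT1-Da: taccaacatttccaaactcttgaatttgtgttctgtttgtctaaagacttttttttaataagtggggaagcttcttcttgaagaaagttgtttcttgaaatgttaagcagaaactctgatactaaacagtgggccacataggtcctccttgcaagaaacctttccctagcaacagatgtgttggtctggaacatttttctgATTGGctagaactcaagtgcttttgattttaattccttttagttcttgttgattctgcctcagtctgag

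The interferon response letters were found once each in B2m (150 bases before the start), Tap1 (121 bases), Tap2 (41 bases) and Psmb8 (4 bases, crossing the start), and in 3.50% of the 27457 promoters of the RefSeq table. They were not found in this window of Psmb9, Cd74, RT1-Ba or RT1-Da. The starts of Tap1 and Psmb9 are 457 bases apart on GRCr8, and the Tap1 match lies between these starts, outside the Psmb9 window. The letters TTCNNNGAA were found only in Psmb8 among the 8, 245 bases before its start, and in 8.03% of all promoters. CCAAT was present in B2m, Psmb8, Cd74, RT1-Ba and RT1-Da, and in 35.8% of all promoters. The full letters TGACGTCA, a cyclic AMP response element like that of the class II X2 box, were found in RT1-Ba, 69 bases before the start, and in 1.85% of all promoters.

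The samples held 17591916 to 30299032 counts. Counts of ribosomal RNA genes took from 10.4 to 15.5% of them for SASCs, from 22.4 to 32.9% for PASCs and from 15.9 to 40.3% for EASCs. Levels are given as CPM, counts scaled to a common library size by TMM, and levels of different genes are compared only per length, as FPKM, the CPM divided by the gene length in kilobases, computed here from the counts. A count of 3 in a library corresponded to 0.104 to 0.159 CPM. Of the 9 mesenchymal stem cell markers examined, 8 were detected and Ly6al was listed at 0. The summed level of the list ranged over 4137 to 4265 CPM across the SASCs samples, 3784 to 3960 CPM across the PASCs and 4962 to 5032 CPM across the EASCs. Members of this list moved in opposite directions. Pdgfra had 1543 CPM in SASCs, 278 in PASCs and 235 in EASCs, whereas Itgb1 had 1046, 1814 and 2951 CPM. All 21 markers of leukocytes, macrophages and dendritic cells had counts in at least 1 library, though Cx3cr1 was at 0 in all SASCs and Flt3 in all EASCs. The 21 summed to between 111 and 119 CPM per SASCs sample, between 185 and 186 per PASCs sample and between 328 and 335 per EASCs sample. Of 10 listed B and T cell markers, 5 were at 0 in every library, among them Cd79b, Ms4a1, Cd3d and Cd3e, Cd79a and Cd3g each had 1 count in 1 library, and Cd2 and Cd8a had at most 16 counts in a library. The sum of the list, between 3.78 and 4.78 CPM per SASCs sample, 5.09 and 5.98 per PASCs sample and 14.8 and 16.3 per EASCs sample, was mostly Cd4, which rat macrophages also make. Cd4 had 4.17 ± 0.505 CPM in SASCs, 5.28 ± 0.447 in PASCs and 15.2 ± 0.943 in EASCs (SD, n = 3).

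B2m, Tap1, Psmb8 and Psmb9 were expressed in all 3 cell types and differed by less than 2-fold, the transactivator Nlrc5 was lower in PASCs and EASCs than in SASCs, and the class II genes were at 1.76 CPM or less in every library. The order of the levels per length put B2m first in every group, at 292 ± 11.2 FPKM in SASCs, 196 ± 2.89 in PASCs and 254 ± 10.9 in EASCs (SD, n = 3). Psmb8, Tap1 and Psmb9 followed, between 5.56 and 16.8 FPKM. Psmb8 and Tap1 overlapped in SASCs (8.99 ± 0.347 and 8.84 ± 0.699 FPKM), and Tap1 and Psmb9 overlapped in PASCs (7.05 ± 0.372 and 6.91 ± 0.420 FPKM). Nlrc5 came next in SASCs, at 0.417 ± 0.0427 FPKM, whereas in PASCs and EASCs Cd74 and RT1-Da stood above it. Ciita, RT1-Ba and the row named Tap2, whose identity is uncertain, were last in each group, at 0.0477 FPKM or less.

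**Figure D1:**
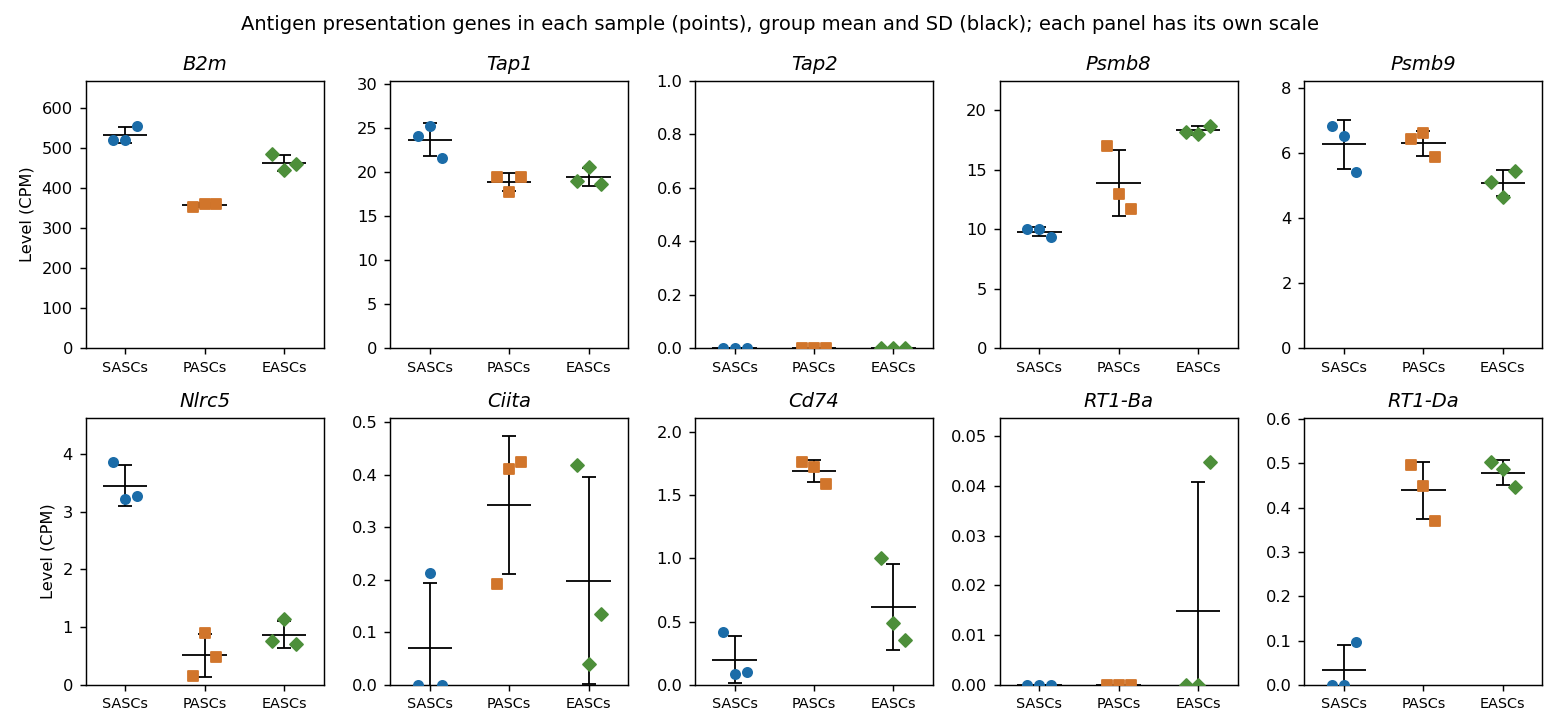
Level in CPM (vertical axis, each panel on its own scale) of the 10 genes in the 9 samples (points), grouped by cell type, with the group mean and SD in black. B2m was lowest in the PASCs, Psmb8 was lowest in the SASCs, Nlrc5 was highest in the SASCs, Cd74 was highest in the PASCs, and Tap2 was at 0 throughout.

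A filter on low counts left 14770 genes, and 7 of the 10 were among them, all but Tap2, Ciita and RT1-Ba. DEGs were genes with a fold change above 2 and a Benjamini-Hochberg adjusted p under 0.05 in edgeR's quasi-likelihood test over all genes. Between EASCs and SASCs, Cd74 and RT1-Da were upregulated DEGs and Nlrc5 was a downregulated DEG, 3 of 7 tested genes, against 27.8% of all tested genes (13.6% higher and 14.2% lower). The same 3 genes were DEGs between PASCs and SASCs, where the share over all genes was 26.9% (12.0% higher and 14.9% lower). Between EASCs and PASCs the single DEG was Cd74, lower in EASCs, against 7.39% of all genes (5.19% higher and 2.20% lower). At any fold change, an adjusted p under 0.05 was reached by 3 genes higher and 3 lower in EASCs than in SASCs, where 69.7% of all genes reached it (35.5% higher and 34.3% lower). In PASCs against SASCs it was again 3 higher and 3 lower, with 69.2% of all genes (34.6% in each direction, the higher and the lower), and in EASCs against PASCs 2 higher and 1 lower, with 30.7% (16.1% higher and 14.5% lower). Both comparisons with SASCs use the same 3 SASCs samples, so their values are given side by side and not as independent results. With so few genes these shares are a description and are not distinguished from those of all genes.

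**Figure D2:**
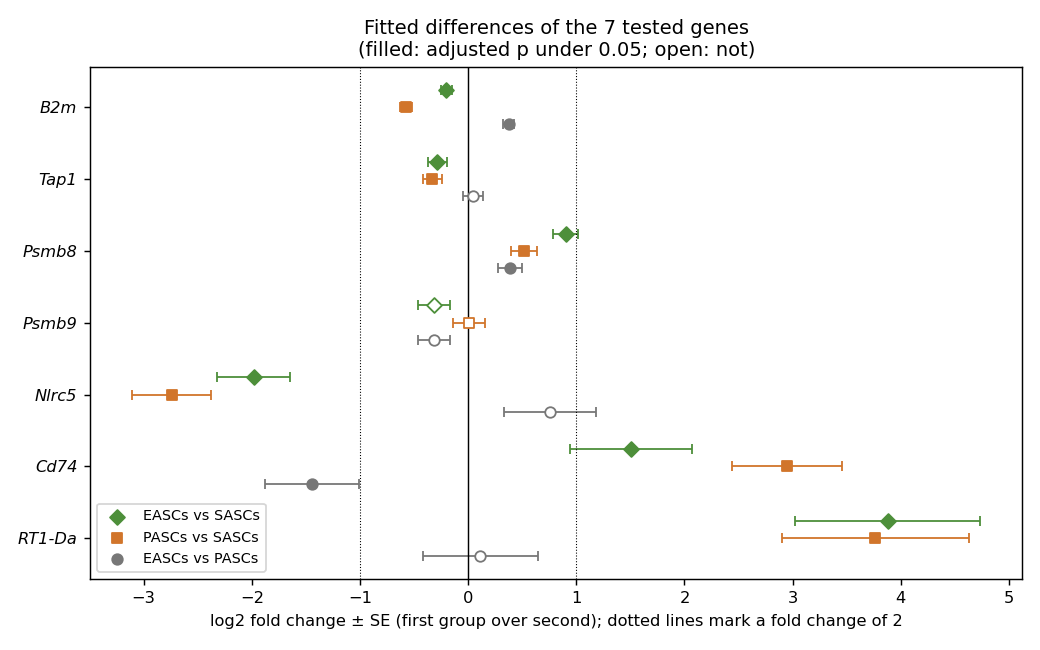
Fitted log2 fold change with its SE (horizontal axis) of the 7 tested genes in the 3 comparisons, with filled symbols for an adjusted p under 0.05 and dotted lines at a fold change of 2. Nlrc5 lies below the dotted line and RT1-Da above it in both comparisons with SASCs, while the symbols of B2m, Tap1, Psmb8 and Psmb9 lie between the lines.

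B2m encodes the light chain that every classical class I molecule needs to leave the endoplasmic reticulum. Its level was 522, 521 and 557 CPM in the SASCs, 352, 361 and 362 CPM in the PASCs and 485, 445 and 462 CPM in the EASCs. The 3 groups did not overlap, with SASCs highest and PASCs lowest. B2m was lower in PASCs than in SASCs by a log2 fold change of -0.57 (SE 0.0541, edgeR adjusted p = 3.43e-10). In EASCs the log2 fold change against SASCs was -0.20 (SE 0.0539, edgeR adjusted p = 0.00172), and against PASCs it was 0.37 (SE 0.0541, edgeR adjusted p = 3.67e-06). Without TMM scaling the last difference did not pass (log2 fold change 0.30, adjusted p = 0.251). The median of all genes against SASCs was then -0.39 in EASCs and -0.33 in PASCs, beside 0.01 and -0.01 with TMM. In bulk samples such as these, fewer cells of a type and less RNA per cell cannot be told apart.

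Tap1 encodes one of the chains of the peptide transporter. The SASCs had 24.1, 25.3 and 21.6 CPM, the PASCs 19.4, 17.7 and 19.5 CPM and the EASCs 19.0, 20.6 and 18.7 CPM. Every SASCs sample was above every PASCs and EASCs sample, and the last groups overlapped. The log2 fold change against SASCs was -0.33 in PASCs (SE 0.0883, edgeR adjusted p = 0.00169) and -0.29 in EASCs (SE 0.0880, edgeR adjusted p = 0.00533), and 0.04 between EASCs and PASCs (adjusted p = 0.763). Tap1 per unit of B2m was 0.0304 ± 0.00346 in SASCs, 0.0360 ± 0.00214 in PASCs and 0.0287 ± 0.00259 in EASCs, as a ratio of FPKM (SD, n = 3).

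Tap2, which encodes the partner chain without which Tap1 moves no peptide, had 0 counts in all 9 libraries, which allows up to 0.104 to 0.159 CPM, depending on the library. The row named Tap2 carries the description and the gene identifier 24811 of Tap1, so its identity in the table is uncertain. Another row on chromosome 20 (LOC103689996, positions 5197869 to 5212259), described as antigen peptide transporter 2, held 3 to 19 counts per library and 88 in all. Psmb8 also had a second row (LOC103690099), with 0 to 4 counts against 191 to 444 for Psmb8 itself. How reads that match more than one row were counted is not given in the sources used here. The values of the Tap2 row are thus no measure of the second chain.

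Psmb8 encodes the immunoproteasome subunit that replaces Psmb5. Its level was 9.19, 9.19 and 8.59 FPKM in the SASCs, 15.6, 11.9 and 10.8 FPKM in the PASCs and 16.7, 16.6 and 17.2 FPKM in the EASCs. The groups did not overlap, and the PASCs spread most widely. The log2 fold change was 0.90 in EASCs against SASCs (SE 0.115, edgeR adjusted p = 1.02e-07), 0.51 in PASCs against SASCs (SE 0.118, edgeR adjusted p = 3.67e-04) and 0.39 in EASCs against PASCs (SE 0.112, edgeR adjusted p = 0.00851). Without TMM scaling the PASCs difference from SASCs was 0.18 (adjusted p = 0.396) and that between EASCs and PASCs was 0.32 (adjusted p = 0.268). Leaving out PASCs replicate 2 or 3 also ended the call between EASCs and PASCs, at adjusted p = 0.0535 and 0.0608.

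Psmb9, which replaces Psmb6 and lies head to head with Tap1, passed in no comparison. The SASCs had 6.85, 6.54 and 5.42 CPM, the PASCs 6.43, 6.62 and 5.88 CPM and the EASCs 5.11, 4.66 and 5.46 CPM. The EASCs were the lowest group but overlapped the SASCs. The log2 fold changes were -0.31 in EASCs against SASCs (SE 0.148, edgeR adjusted p = 0.0631), 0.01 in PASCs against SASCs (adjusted p = 0.971) and -0.32 in EASCs against PASCs (adjusted p = 0.110). The first of them passed with RLE size factors (adjusted p = 0.0493), without TMM scaling (0.00191) and without SASCs replicate 3 (0.0273). Whether Psmb8 and Psmb9 differed in their change was not tested.

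The constitutive subunits that the immunoproteasome replaces rose in both visceral groups. Psmb6 was an upregulated DEG, from 22.2 ± 0.866 CPM in SASCs to 48.4 ± 3.08 in PASCs and 47.2 ± 1.13 in EASCs (SD, n = 3; log2 fold changes 1.12 and 1.08, edgeR adjusted p = 8.80e-14 and 1.79e-13). Psmb5 and Psmb7 rose by log2 fold changes of 0.93 and 0.86 in PASCs and 0.90 and 0.84 in EASCs, under the 2-fold threshold, and the row of Psmb5 overlaps another row. The FPKM ratio of Psmb9 to Psmb6 was 0.254 ± 0.0210 in SASCs, 0.118 ± 0.00972 in PASCs and 0.0970 ± 0.00665 in EASCs, and no groups overlapped. For Psmb10 to Psmb7 it was 0.212 ± 0.0214 in SASCs, 0.125 ± 0.00340 in PASCs and 0.118 ± 0.0119 in EASCs, with SASCs above every other sample. The ratio of Psmb8 to Psmb5 was 0.163 ± 0.0109 in SASCs and 0.162 ± 0.00522 in EASCs, which overlapped, and 0.121 ± 0.0205 in PASCs, below both. An exact permutation test of 3 against 3 cannot go below p = 0.1 (two-sided), which was the value wherever groups did not overlap, and 0.133 after Benjamini-Hochberg adjustment over the 12 comparisons of ratios made.

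**Figure D3:**
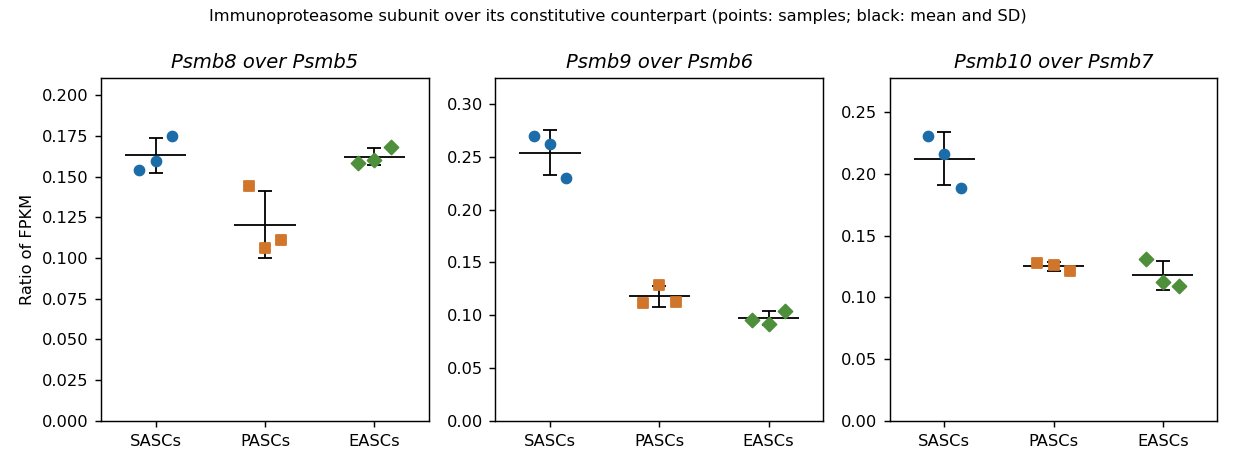
Ratio of FPKM (vertical axis, from 0) of each immunoproteasome subunit to the constitutive subunit it replaces, for each sample (points), with the group mean and SD in black. The ratios of Psmb9 and Psmb10 were highest in the SASCs, at 0.254 and 0.212 on average, while that of Psmb8 was 0.163 in SASCs and 0.162 in EASCs and lower in PASCs.

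Across the listed genes of class I antigen processing, 21 of 23 were tested and Psmb6 was the only DEG in each comparison with SASCs, 1 of 21 beside 27.8% and 26.9% of all genes, and without TMM scaling Psmb6 was no DEG in EASCs. At any fold change, 8 were higher and 2 lower in EASCs than in SASCs, and 8 were higher and 7 lower in PASCs than in SASCs, where 69.7% and 69.2% of all genes passed. The median log2 fold change of the list was 0.04 in EASCs and 0.02 in PASCs, beside 0.01 and -0.01 over all genes. Tapbpl, an editor of peptides on class I, had 45.6 CPM in SASCs, 28.4 in PASCs and 31.9 in EASCs, lower by log2 fold changes of -0.69 and -0.52 (edgeR adjusted p = 1.71e-09 and 2.51e-07). Erap1, which trims peptides in the endoplasmic reticulum, was lower in PASCs alone among the comparisons with SASCs (log2 fold change -0.37, edgeR adjusted p = 6.36e-06), and in EASCs it was -0.03 (adjusted p = 0.648). The chaperone Calr passed in none of the 3 comparisons, at 1128, 1147 and 1187 CPM.

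Among the 5 tested class I members, Nlrc5 had the widest differences from SASCs. Its counts were 111, 76 and 67 in the SASCs, 4, 24 and 9 in the PASCs and 18, 28 and 16 in the EASCs. All SASCs samples were above all others. The means were 3.45 ± 0.353 CPM in SASCs, 0.509 ± 0.373 in PASCs and 0.868 ± 0.232 in EASCs (SD, n = 3). Nlrc5 was lower by a log2 fold change of -2.74 in PASCs (SE 0.365, edgeR adjusted p = 2.10e-07) and -1.98 in EASCs (SE 0.337, edgeR adjusted p = 9.23e-06). Between EASCs and PASCs the log2 fold change was 0.76 (SE 0.425, edgeR adjusted p = 0.194), and without PASCs replicate 2, which held 24 counts, it was 1.56 (adjusted p = 0.0193).

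A list of 57 symbols held the class I heavy chains, which bind the peptide, the molecules of related structure, and B2m itself. Of these, 36 were in the table and 24, B2m among them, were tested. In EASCs 1 was an upregulated and 5 were downregulated DEGs against SASCs, and in PASCs 3 were upregulated and 6 downregulated, or 6 and 9 DEGs of 24 where 27.8% and 26.9% of all genes were DEGs. Without TMM scaling the EASCs count was 10 DEGs in place of 6. The median log2 fold change was -0.22 in EASCs and -0.42 in PASCs, beside 0.01 and -0.01 over all genes. RT1-A2, of the RT1-A region that holds the classical class I genes, and RT1-CE5, of the RT1-C/E region, stood in SASCs at 30.1 and 32.4 CPM, in PASCs at 26.4 and 28.3 CPM, in EASCs at 35.6 and 36.7 CPM, and the row of RT1-CE5 overlaps another row. RT1-A2 was higher in EASCs than in PASCs (log2 fold change 0.43, edgeR adjusted p = 3.68e-04), as B2m was. Against SASCs it was higher in EASCs (0.24, edgeR adjusted p = 0.0183), where B2m was lower, and did not pass in PASCs (-0.19, adjusted p = 0.0556).

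RT1-T24-1, a nonclassical class I gene, had the largest rise of the 24 tested rows in both comparisons with SASCs, at 6.06 ± 0.428 CPM in SASCs, 43.8 ± 0.489 in PASCs and 33.7 ± 1.27 in EASCs (SD, n = 3). Its log2 fold changes were 2.85 in PASCs (edgeR adjusted p = 6.14e-21) and 2.47 in EASCs (edgeR adjusted p = 1.80e-19). Mr1, which presents vitamin B metabolites to mucosal-associated invariant T cells, went the other way, from 16.8 ± 1.11 CPM in SASCs to 1.73 ± 0.474 in PASCs and 4.24 ± 0.349 in EASCs (log2 fold changes -3.25 and -1.98, edgeR adjusted p of 3.34e-16 in PASCs and 1.00e-12 in EASCs). It was the only DEG of the list between EASCs and PASCs (log2 fold change 1.27, edgeR adjusted p = 3.18e-06). Fcgrt, the neonatal Fc receptor that also pairs with B2m, fell from 218 ± 12.5 CPM in SASCs to 96.3 ± 8.44 in PASCs and 106 ± 1.45 in EASCs. RT1-M6-2 fell from 7.72 ± 0.910 CPM to 2.83 ± 0.434 and 2.44 ± 0.363. RT1-M3-1, at 8.59 ± 0.531 CPM in SASCs, was a DEG in PASCs (3.32 ± 0.604) and just under the 2-fold threshold in EASCs (4.37 ± 0.219). RT1-M6-1 had 0.387 CPM in SASCs, 0.174 in PASCs and 0.0275 in EASCs. It passed the filter on low counts through the SASCs libraries, at 8 to 11 counts each, and had at most 1 count in an EASCs library, so its call in EASCs rests on few counts. Class I genes of the RT1 region are a multigene family of close copies, and rows of RT1-T24-2, RT1-T24-3 and RT1-T24-4 overlap other rows of the table, so the division of reads among them is uncertain.

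**Figure D4:**
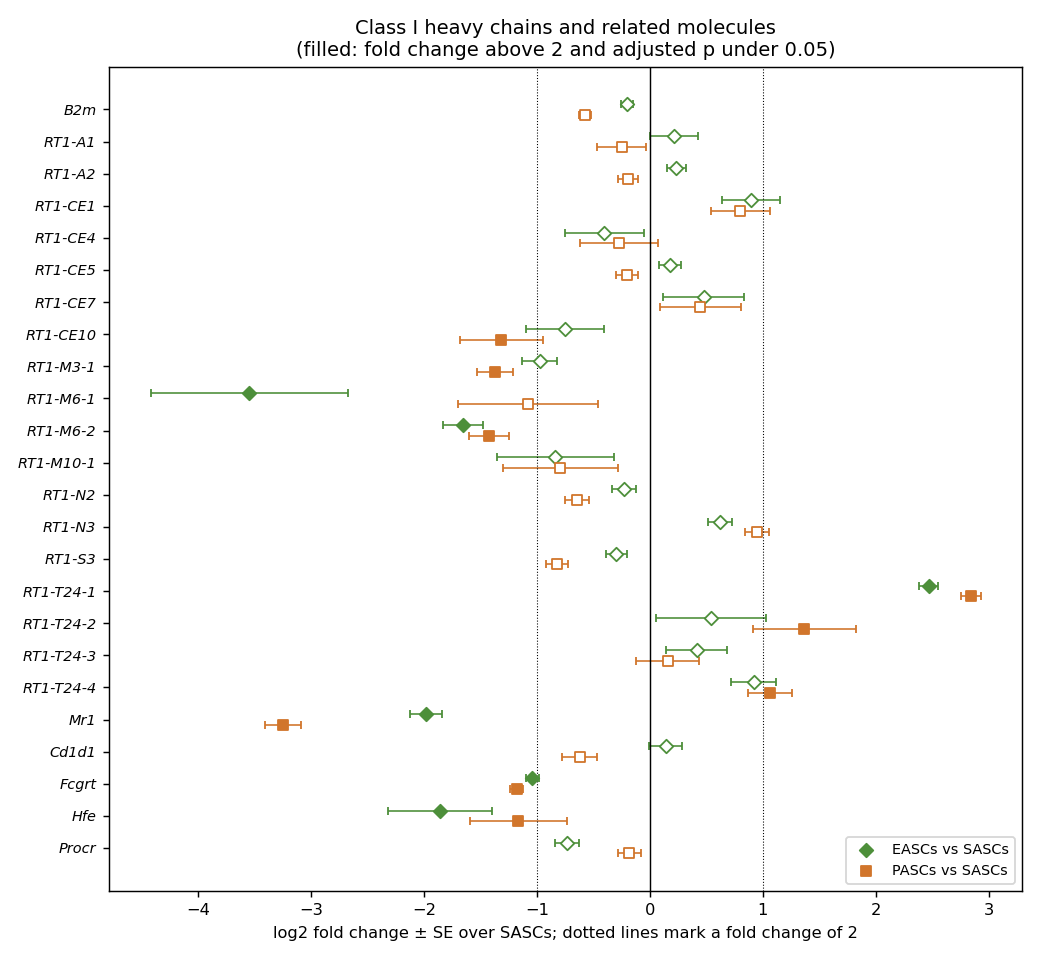
Fitted log2 fold change over SASCs with its SE (horizontal axis) for the 24 tested rows of the list of class I heavy chains and related molecules, B2m included, in EASCs (diamonds) and PASCs (squares), with filled symbols for DEGs. RT1-T24-1 stands above the upper dotted line and Mr1, Fcgrt, Hfe, RT1-M6-1 and RT1-M6-2 below the lower one in both groups. RT1-M6-1 is a DEG in EASCs only, where it had at most 1 count in a library.

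Class II genes were near 0 in the SASCs and low in the other groups. RT1-Da, the alpha chain of the rat DR-like molecule, had 0, 0 and 2 counts in the SASCs, 13, 12 and 7 in the PASCs and 12, 12 and 10 in the EASCs. No PASCs or EASCs sample was as low as any SASCs sample, and PASCs and EASCs overlapped. Summed over each group and scaled to depth, the ratio to SASCs was 16.2 in PASCs (95% counting interval 4.14 to 140) and 17.5 in EASCs (4.47 to 150), and these intervals cover counting error only. RT1-Da was an upregulated DEG in both (edgeR adjusted p = 3.91e-04 and 2.52e-04), with fitted log2 fold changes of 3.77 (SE 0.865) and 3.88 (SE 0.855) that depend on the prior count, and it was 0.11 between EASCs and PASCs (SE 0.530, adjusted p = 0.903). Its level was at most 0.502 CPM in any library. It passed the filter on low counts through the PASCs and EASCs libraries, and in a fit of only the 2 groups compared it was not tested against SASCs, so these calls rest on the fit of all 9 samples.

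Cd74, the invariant chain, had 12, 2 and 2 counts in the SASCs, 46, 46 and 30 in the PASCs and 24, 12 and 8 in the EASCs. The PASCs were above all other samples, whereas EASCs and SASCs overlapped in CPM. The means were 0.200 ± 0.188 CPM in SASCs, 1.69 ± 0.0895 in PASCs and 0.616 ± 0.342 in EASCs (SD, n = 3). Cd74 was an upregulated DEG in PASCs (log2 fold change 2.95, SE 0.506, edgeR adjusted p = 1.07e-05). In EASCs the log2 fold change was 1.50 against SASCs (SE 0.565, edgeR adjusted p = 0.0205) and -1.44 against PASCs (SE 0.433, edgeR adjusted p = 0.0116). Both EASCs differences kept their direction but missed the threshold without certain single libraries. Against SASCs the log2 fold change was 0.97 without EASCs replicate 1 (adjusted p = 0.189), 1.15 without SASCs replicate 2 (0.0992) and 1.22 without SASCs replicate 3 (0.0823). Against PASCs it was -1.30 without EASCs replicate 2 (0.0623) and -1.18 without EASCs replicate 3 (0.0753). The call in EASCs against SASCs was also lost without TMM scaling (1.12, adjusted p = 0.0742).

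Ciita, the class II transactivator, had 0, 5 and 0 counts in the SASCs, 5, 11 and 8 in the PASCs and 10, 1 and 3 in the EASCs. Scaled to depth, all 3 groups overlapped, and the gene was below the filter. Summed over the group, the PASCs ratio to SASCs was 4.87 (95% counting interval 1.82 to 16.3) and the EASCs ratio was 2.88 (0.979 to 10.2). With the filter removed, the edgeR adjusted p was 0.0698 in PASCs and 0.289 in EASCs. RT1-Ba, the alpha chain of the DQ-like molecule, had 1 count in EASCs replicate 3 and 0 in the other 8 libraries, so no fold change is given.

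The partner chains and other class II genes also had low counts. RT1-Db1, the beta chain that pairs with the product of RT1-Da, had 0 counts in all SASCs, 16, 7 and 4 in the PASCs and 3, 4 and 3 in the EASCs. RT1-Bb, the partner of RT1-Ba, had 1 count in PASCs replicate 2 and 1 in EASCs replicate 1. RT1-Db2, RT1-DMa, RT1-DMb, RT1-DOa and RT1-Ha were at 0 in every library. RT1-Db1 and RT1-Db2 are near-identical beta chain genes, and RT1-DMa and RT1-DMb each have a second row in the table (LOC100909593 with 0 to 2 counts and LOC100909630 with 0). How reads were divided among such copies was not tested, so a row at 0 is reported only as listed.

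Of the 17 listed class II molecules and processing genes, 8 were tested, and in each comparison with SASCs 4 were upregulated and 1 was downregulated, where DEGs made up 27.8% of all genes in EASCs and 26.9% in PASCs. At any fold change the list was split, with 4 higher (Cd74, RT1-Da, Ctss and March1) and 4 lower (Lgmn, Ctsl, Ifi30 and March8) in both comparisons, where 69.7% of all genes passed in EASCs and 69.2% in PASCs. The median log2 fold change, 0.64 in EASCs and 0.45 in PASCs beside 0.01 and -0.01 over all genes, falls between these 4 and 4 and stands for no gene. Ctss, the protease that cuts the invariant chain, rose from 2.35 ± 0.370 CPM in SASCs to 4.87 ± 0.510 in PASCs and 10.6 ± 0.928 in EASCs (log2 fold changes 1.06 and 2.17, edgeR adjusted p = 4.39e-06 and 2.50e-12). March1, a ubiquitin ligase that removes class II from the surface, rose from 0.441 ± 0.0249 CPM to 1.36 ± 0.115 and 2.96 ± 0.536. Lgmn, an endosomal protease, was the downregulated DEG, from 378 ± 8.87 CPM in SASCs to 81.6 ± 3.06 in PASCs and 126 ± 3.23 in EASCs (log2 fold changes -2.21 and -1.59, edgeR adjusted p = 6.03e-23 and 4.60e-20). Lgmn is also made by many cells outside antigen presentation. Between EASCs and PASCs, Ctss and March1 were higher (log2 fold change 1.11 for each) and Cd74 lower, 3 of 8 beside 7.39% of all genes, and without EASCs replicate 3 the list held 1 DEG in place of 3.

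The summed leukocyte markers were also higher in both groups than in SASCs, though not each marker. Of the 21 markers, 19 were tested, and 17 were upregulated DEGs in EASCs and 10 were upregulated and 1 downregulated in PASCs, where 13.6% and 12.0% of all genes were higher. The downregulated marker was Cd163, a scavenger receptor of macrophages, at 27.8 CPM in SASCs, 7.52 in PASCs and 30.8 in EASCs, and Mrc1 was lower in PASCs by a log2 fold change of -0.32 (edgeR adjusted p = 0.00342). Their sum was highest in EASCs, at 328 to 335 CPM, where Ctss and March1 were also highest, whereas Cd74 was highest in PASCs, where the sum was 185 to 186 CPM. Ptprc, the pan-leukocyte phosphatase CD45, had between 22 and 26 counts per library of SASCs, between 36 and 41 for PASCs and between 70 and 77 for EASCs. The part of leukocyte RNA in the class II values was not tested.

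**Figure D5:**
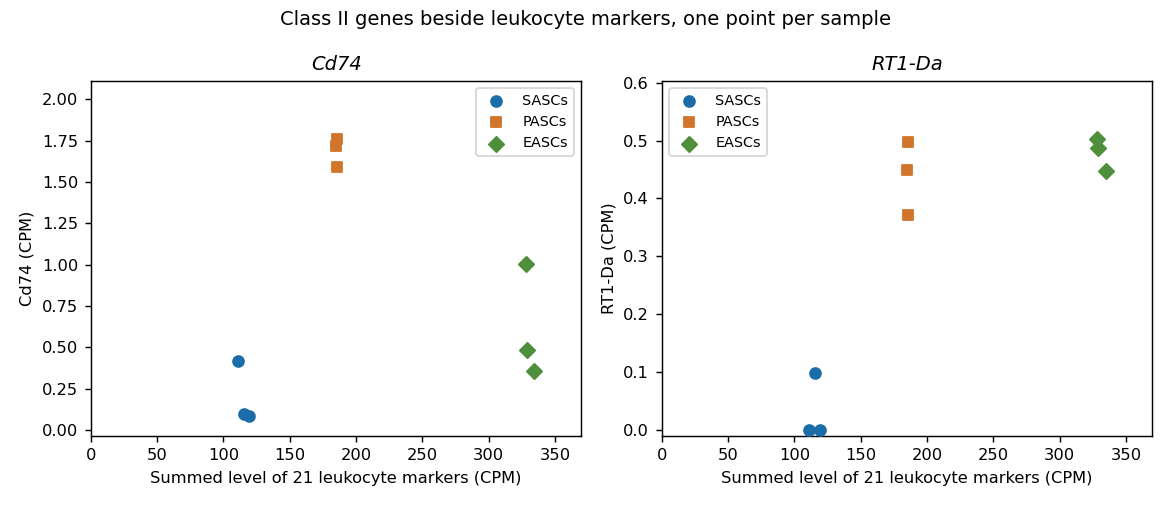
Level of Cd74 (left) and RT1-Da (right) in CPM (vertical axes) against the summed level of the 21 leukocyte markers (horizontal axis), with 1 point per sample. The PASCs hold the highest Cd74 at a marker sum of 185 to 186 CPM, while the EASCs hold a marker sum of 328 to 335 CPM with Cd74 at 0.358 to 1.00 CPM.

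Nlrc5 and Ciita bind no DNA themselves and act through shared partners. Of the 13 listed transactivators and partners, 12 were tested. Nlrc5 was the 1 DEG in EASCs, and Nlrc5 and Ezh2 were the 2 DEGs in PASCs, beside 27.8% and 26.9% of all genes. In each of these comparisons the number stayed within 1.5 times in 15 of the 16 alternatives run. Rfx5, which binds the X box of class I and class II promoters, had 25.3, 26.9 and 26.8 CPM in SASCs, PASCs and EASCs, with log2 fold changes of 0.09 in both comparisons with SASCs (edgeR adjusted p = 0.383 in PASCs and 0.384 in EASCs). Nfyb, a subunit of the CCAAT-binding factor, was lower by log2 fold changes of -0.51 in PASCs and -0.88 in EASCs (edgeR adjusted p = 1.18e-05 and 1.59e-09). Its other subunits went the other way. Nfyc was higher by 0.62 in PASCs and 0.41 in EASCs (edgeR adjusted p = 4.32e-07 and 1.73e-04). Nfya was higher by 0.32 in EASCs (edgeR adjusted p = 7.69e-04) and did not pass in PASCs (0.12, adjusted p = 0.191). Ezh2, a histone methyltransferase known to silence both gene classes in tumour cells, was an upregulated DEG in PASCs, at 21.5 ± 0.835 against 10.5 ± 0.334 CPM in SASCs. Its log2 fold change there was 1.03, just above the 2-fold threshold. In EASCs Ezh2 was 15.9 ± 0.739 CPM (log2 fold change 0.60). The row of Ezh2 overlaps another row of the table.

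Among 22 listed genes of interferon and cytokine control, 18 were tested. Jak2, Ifngr1, Ifnar1 and Il6st were downregulated DEGs in both comparisons with SASCs, and with Irf8 in EASCs the DEGs were 5 of 18 in EASCs and 4 of 18 in PASCs, beside 27.8% and 26.9% of all genes. Ifngr1, the ligand-binding chain of the interferon gamma receptor, fell from 142 ± 8.19 CPM in SASCs to 52.4 ± 1.07 in PASCs and 62.3 ± 2.46 in EASCs. Jak2, a kinase of the same receptor, fell from 130 ± 5.80 to 55.8 ± 3.36 and 59.4 ± 4.51 CPM. The other receptor chain, Ifngr2, passed in no comparison, at 28.7, 27.0 and 28.5 CPM. Ifnar1, a chain of the type I interferon receptor, fell from 132 ± 3.07 to 61.3 ± 0.946 and 64.8 ± 0.461 CPM. Irf1, which acts on class I and Ciita promoters, passed in no comparison, at 9.97, 9.25 and 9.02 CPM. Irf8, a factor of the myeloid lineage, was an upregulated DEG in EASCs, from 1.56 ± 0.494 to 5.72 ± 1.23 CPM. Ifng, Ifnb1 and Ifna1 were listed at 0 in every library. The median log2 fold change of the list was -0.38 in EASCs and -0.41 in PASCs, beside 0.01 and -0.01 over all genes, and without TMM scaling the DEGs numbered 9 in EASCs in place of 5 and 7 in PASCs in place of 4.

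The genes whose levels over the 9 samples were most like B2m were Gla (Pearson r 0.993), Sulf1 (0.989), Abi3bp (0.987), Ifit3 (0.987) and Ednra (0.986), from log2 CPM with a pseudocount of 0.1. All 5 were highest in SASCs and lowest in PASCs, for example the interferon-induced Ifit3 at 2.63 ± 0.474, 0.371 ± 0.0479 and 1.40 ± 0.262 CPM in SASCs, PASCs and EASCs. Most like Cd74 were Cep78 (0.979), Brd9 (0.977), Rwdd1 (0.973), RGD1309104 (0.971) and Exnef (0.971), all highest in PASCs. The 9 points fall into 3 groups and share library and depth, so these correlations describe the order of the groups.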

How the data were processed

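RNA of 9 ASC samples, 3 of each depot, was sequenced as paired reads. The authors trimmed the reads, aligned them with TopHat 2.1.1 to the rat genome and deposited raw counts per gene for each sample. The counting tool, its strand setting and its treatment of reads with several matches are not given in the sources used here. Samples were grouped by their labels. Counts were analysed with edgeR 4.0.16 in R 4.3.3: genes passed filterByExpr, libraries were scaled by TMM, and a quasi-likelihood model over all 9 samples was tested for the 3 differences between groups, with Benjamini-Hochberg adjustment over 14770 genes. The common biological coefficient of variation was 0.0685. The same steps were tested on simulated data. CPM used the totals of the genes that passed the filter (17579407 to 30286745 counts per library), scaled by TMM, and FPKM also the deposited gene length, which is in bases. Counting intervals were exact binomial. Alternatives were RLE scaling, DESeq2 1.42.0, no TMM, no filter, removal of ribosomal RNA genes, the 2 groups alone, a replicate block and the omission of each replicate. The members and gene lists were chosen with earlier results of these data known. Named were all members, up to 6 DEGs of each list with at least 5 CPM in a group, ranked by fold change against SASCs, and the 5 genes most like B2m and Cd74. Others in the text (Psmb5, Psmb7, Psmb10, Tapbpl, Erap1, Calr, RT1-A2, RT1-CE5, Hfe, RT1-M6-1, RT1-T24-2 to RT1-T24-4, RT1-Db1, March1, Rfx5, Nfya, Nfyb, Nfyc, Irf1, Ifngr2, Ctsl, Ifi30, March8, Cd4, Cd163, Mrc1, Ptprc, Pdgfra, Itgb1, Tek, Kdr, Cd40, Cd80, Cd83, Cd274, Icam1, Brd2 and genes with a few counts or none) were named after their values were seen. Promoter sequences and start sites were taken from RefSeq (GRCr8).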

Additional observations from a re-analysis of the deposited data

How the results depend on the processing

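The number of members called between EASCs and PASCs depended on single libraries: it was 1, and 0 to 2 when each replicate was left out in turn. Without EASCs replicate 2 or 3 Cd74 was lost (adjusted p = 0.0623 and 0.0753), and without PASCs replicate 2 Nlrc5 was added (log2 fold change 1.56, adjusted p = 0.0193). The number called in each comparison with SASCs was 3, or 2 where Cd74 or RT1-Da was lost, and the numbers of DEGs over all genes stayed within 1.5 times in the 16 alternatives run. In these, no member that passed the test reversed its direction. RT1-Da failed the filter when only the 2 groups compared were fitted against SASCs. Cd74 in EASCs against SASCs also missed the threshold without TMM scaling (log2 fold change 1.12, adjusted p = 0.0742).

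Samples with the same replicate number did not deviate together (correlations of -0.0301 to 0.0712, with 4 of 9 samples closest to their own number), so the numbers were not taken to pair samples. Fitting that number as a replicate block gave 4061 DEGs between EASCs and SASCs, 3944 between PASCs and SASCs and 1067 between EASCs and PASCs, against 4105, 3979 and 1091 without it, and the members called were again 3, 3 and 1. At these depths 3 counts correspond to 0.104 to 0.159 CPM, and Ciita, RT1-Ba, and Cd74 and RT1-Da in SASCs were at or below that in some libraries.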

Other observations

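Genes that accompany antigen presentation at the surface, the costimulatory and inhibitory ligands, were also read from the table. Of 12 listed, 9 were tested, and 4 were downregulated DEGs in both comparisons with SASCs, beside 14.2% of all genes in EASCs and 14.9% in PASCs. Cd276, also called B7-H3, fell from 155 ± 1.02 CPM in SASCs to 52.3 ± 2.01 in PASCs and 60.0 ± 4.28 in EASCs (SD, n = 3; log2 fold changes -1.56 and -1.37, edgeR adjusted p = 1.07e-18 and 1.77e-17). Icosl, the ligand of Icos, fell from 14.5 ± 1.66 CPM to 5.32 ± 0.806 and 5.34 ± 0.890, and Lgals9, a lectin that binds T cells, from 88.2 ± 3.15 to 40.9 ± 0.770 and 32.9 ± 1.51. Cd40 was the fourth, at 3.66, 1.25 and 1.01 CPM. Cd83, a marker of mature dendritic cells, was an upregulated DEG in both, from 0.587 to 1.44 and 1.99 CPM, and Cd80 in EASCs, from 0.563 to 1.30 CPM. The Cd80 call rested on few counts, 22, 16 and 5 in the SASCs and 43, 24 and 25 in the EASCs (edgeR adjusted p = 0.0169). Cd274, which encodes PD-L1, had 6.95 CPM in SASCs, 12.3 in PASCs and 11.1 in EASCs (log2 fold changes 0.81 and 0.67, edgeR adjusted p = 1.28e-06 and 2.33e-05), under the 2-fold threshold. The adhesion molecule Icam1 was highest in EASCs, at 235 against 162 CPM in SASCs and 132 in PASCs.

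Brd2 of the MHC region also had a second row. Brd2, made by most cells, had 0 to 3 counts per library, and the row LOC100909544 on chromosome 20, described as a protein like Brd2, had 1 to 14.

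Markers of other cell types also differed between the groups. The 8 mesothelium markers summed to between 18.6 and 20.2 CPM per SASCs sample, between 95.1 and 102 per PASCs sample and between 130 and 142 per EASCs sample, and the 7 endothelium markers to 54.9 to 56.2, 13.9 to 17.0 and 37.9 to 40.8 CPM. Among the endothelium markers, Tek went the other way, at 2.55 CPM in SASCs, 8.30 in PASCs and 8.08 in EASCs, an upregulated DEG in both. Kdr was the only downregulated DEG of the 7 in EASCs, where 14.2% of all genes were lower. In PASCs 6 of the 7 were downregulated DEGs, where 14.9% of all genes were lower. The part of mesothelium and endothelium RNA in the values of the MHC genes was not tested.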
